A study of Rattus norvegicus with 12 samples.

Results

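The 46 genes described here carry out or control cell division: G1 cyclins and their kinases, G1 inhibitors with the pocket proteins and E2f1, origin licensing and helicase subunits, DNA polymerases and the clamp PCNA, enzymes of nucleotide supply, the S to M cyclins with Cdk1, and mitotic genes with the proliferation markers. They were taken by symbol from 30045 gene symbols, all 46 were found, and all 46 passed the count filter (60 counts or more, in 2 or more libraries), as did 12602 symbols in all. Metatarsal bones of Sprague-Dawley rat fetuses (embryonic day 19) spent 72 h in culture under 1 of 4 conditions: control medium, 1 µM dexamethasone (a synthetic glucocorticoid), 10 mM LiCl, or dexamethasone + LiCl at these doses. Control and LiCl cultures received the ethanol that carried dexamethasone in the others. Each condition had 3 RNA pools of about 20 bones, and the labels number the pools without saying what a number stands for. In the paper each pool is said to come from a single rat, with 3 rats used. Whole dissected bones were pooled, so resting, columnar and hypertrophic chondrocytes were not separated. The study asked whether lithium protects bone growth from dexamethasone, and it stained PCNA protein as a measure of proliferation.

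A cell enters division when D cyclins with CDK4 and CDK6 phosphorylate the pocket proteins RB1 and RBL1, which frees E2F factors to switch on genes for DNA synthesis. CDC6 and CDT1 then load the MCM helicase onto replication origins, polymerases copy the DNA, and cyclin B with CDK1 drives mitosis. In the growth plate, stacked columnar chondrocytes supply the dividing cells that lengthen the bone, and glucocorticoids are known to slow them.

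The libraries held 9055581 to 21953446 counts, and the 46 genes took 0.323 to 0.374% of the counts of each library. Their lowest count in any library was 37, for Ccnb2, and the highest was 6054, for Mki67. Levels are given as CPM, the count scaled to a library of fixed size after TMM scaling, which removes differences in depth. CPM is not corrected for transcript length, so levels of different genes are not compared. The control library of replicate 2 stood apart: it was the lowest of the 12 libraries for 13 of the 46 genes, while the other control libraries were lowest for 2 and 4. In the map of the 12 libraries this pool is blue in most of the mitotic block, with Cdk6, Ccnd2, Pole and Tyms also low. Results against control are therefore also given without it where it changes them.

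**Figure D1:**
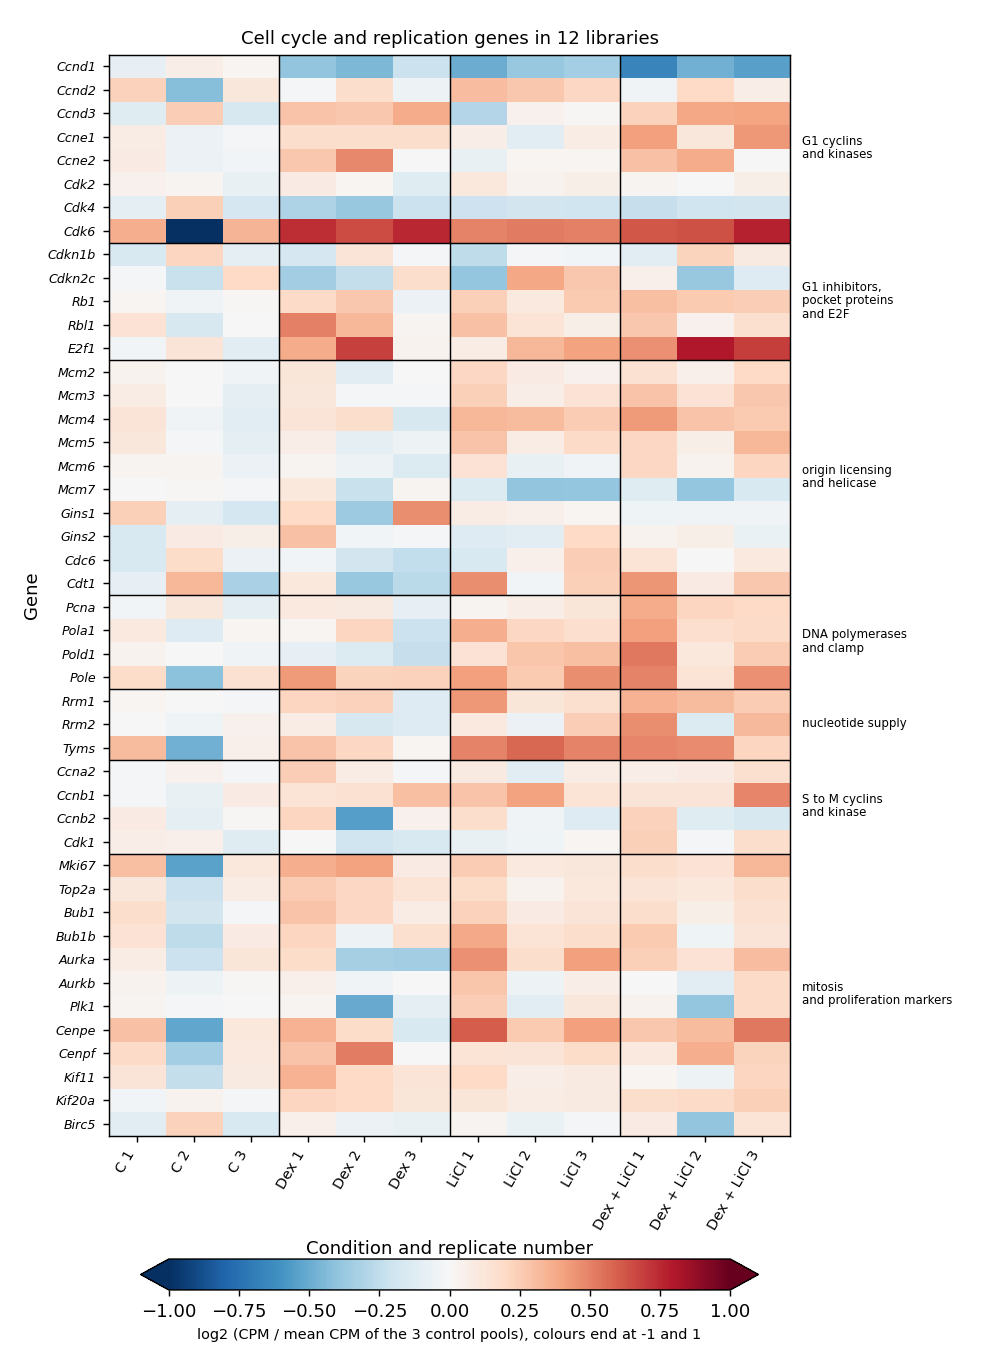
Heat map of the 46 genes (rows, grouped by role) in the 12 libraries (columns, condition and replicate number), coloured by log2 of CPM over the mean CPM of the 3 control pools. Ccnd1 is blue in all 9 treated pools, Cdk6 is far below the others in control replicate 2, and most replication rows are redder in the dexamethasone + LiCl pools than in the control pools.

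Few of the 46 genes passed the test, and the largest number did so when both drugs were compared with control. With dexamethasone, 0 were higher and 1 was lower, Ccnd1, at an adjusted p under 0.05, beside 5.45% of all genes tested that were higher and 5.49% that were lower. With LiCl, 1 was higher (Tyms) and 1 lower (Ccnd1), beside 4.71% and 5.9% of all genes. With LiCl added to dexamethasone, 1 was higher (Pold1) and 0 lower, beside 3.82% and 4.78%. Dexamethasone added to LiCl gave 1 higher (Ccnd3) and 0 lower, beside 3.79% and 3.09%. Against control, the dexamethasone + LiCl group had 10 higher (Ccnd3, Ccne1, E2f1, Rb1, Mcm3, Mcm4, Pcna, Pold1, Rrm1 and Kif20a) and 1 lower (Ccnd1), beside 10.8% and 11.8% of all genes. The shares of the 46 that were called in each direction thus lay at or below the share among all genes in the first 4 comparisons, and 10 of 46 stood above it for genes higher with both drugs. With the replicate number in the model as a block, and also without the count filter, the count of genes higher with LiCl stood above the share among all genes too (6 of 46 beside 7.43% and 5 of 46 beside 3.86%). The count of 10 with both drugs varied when single pools were left out. Without control replicate 2 or 3 it was 6 and 2, beside 9.79% and 9.16% of all genes in the same fits. Without LiCl replicate 3 it was 5, beside 9.74%. Leaving out dexamethasone + LiCl replicates 1, 2 and 3 gave 2, 6 and 3, beside 7.74%, 7.71% and 8.73%. The counts of 2 and 3 lay below the share among all genes, and those of 5 and 6 lay above it. Fits that left out any of the other pools also stayed above it. At an unadjusted p under 0.05 the numbers were 10, 12, 10, 4 and 20 of 46 in the same order, beside 24%, 26.1%, 22.7%, 16.5% and 34.7% of all genes. The first 4 were at or below the background share, and the last stood above it by a margin that was not tested. DESeq2 called 0 higher and 2 lower with dexamethasone (Ccnd1 and Cdk4), beside 6.37% and 6.2% of all genes, 2 higher (Mcm4 and Tyms) and 2 lower (Ccnd1 and Mcm7) with LiCl, beside 5.52% and 6.96%, and the same genes as edgeR in the other 3 comparisons. In tissue RNA, fewer cells of a kind and less RNA per cell cannot be told apart.

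The differences were small. With the study's 2-fold minimum added, 0 of the 46 passed in any of the 5 comparisons, whereas 2.84% of all genes did with dexamethasone, 1.58% with LiCl, 1.36% with LiCl added to dexamethasone, 2.01% with dexamethasone added to LiCl and 4.37% with both drugs against control. The 95% interval of the difference lay within 1 log2 unit (a 2-fold change) of zero for 45, 46, 46, 46 and 45 of the 46 genes in that order, the exception being Cdk6 both times. The median half-width of these intervals was 0.24 log2, and the calls smaller than that were those of Kif20a and Mcm3 with both drugs. Median log2 differences of the 46 were 0.05, 0.11, 0.08, 0.02 and 0.18, beside medians between 0.00 and 0.01 over all genes tested. In the last comparison 38 of the 46 values were above 0, beside 51.3% of all genes, and with LiCl alone 37 were, beside 50.2%.

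Pools of the 2 groups did not overlap for a larger number of genes. With dexamethasone, 8 of the 46 were higher in every pool and 3 lower, where 12.5% and 12.7% of all genes were. With LiCl the counts were 12 and 3, beside 15.4% and 16.4% of all genes. LiCl added to dexamethasone gave 7 and 1, beside 13.3% and 14.4%, and dexamethasone added to LiCl gave 6 and 3, beside 12.6% and 12.9%. With both drugs against control, 16 were higher in every pool and 3 lower, beside 18.7% and 18.6%. The 3 that lay lower in all pools with both drugs were Ccnd1, Cdk4 and Mcm7, and the same 3 lay lower with LiCl alone.

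**Figure D2:**
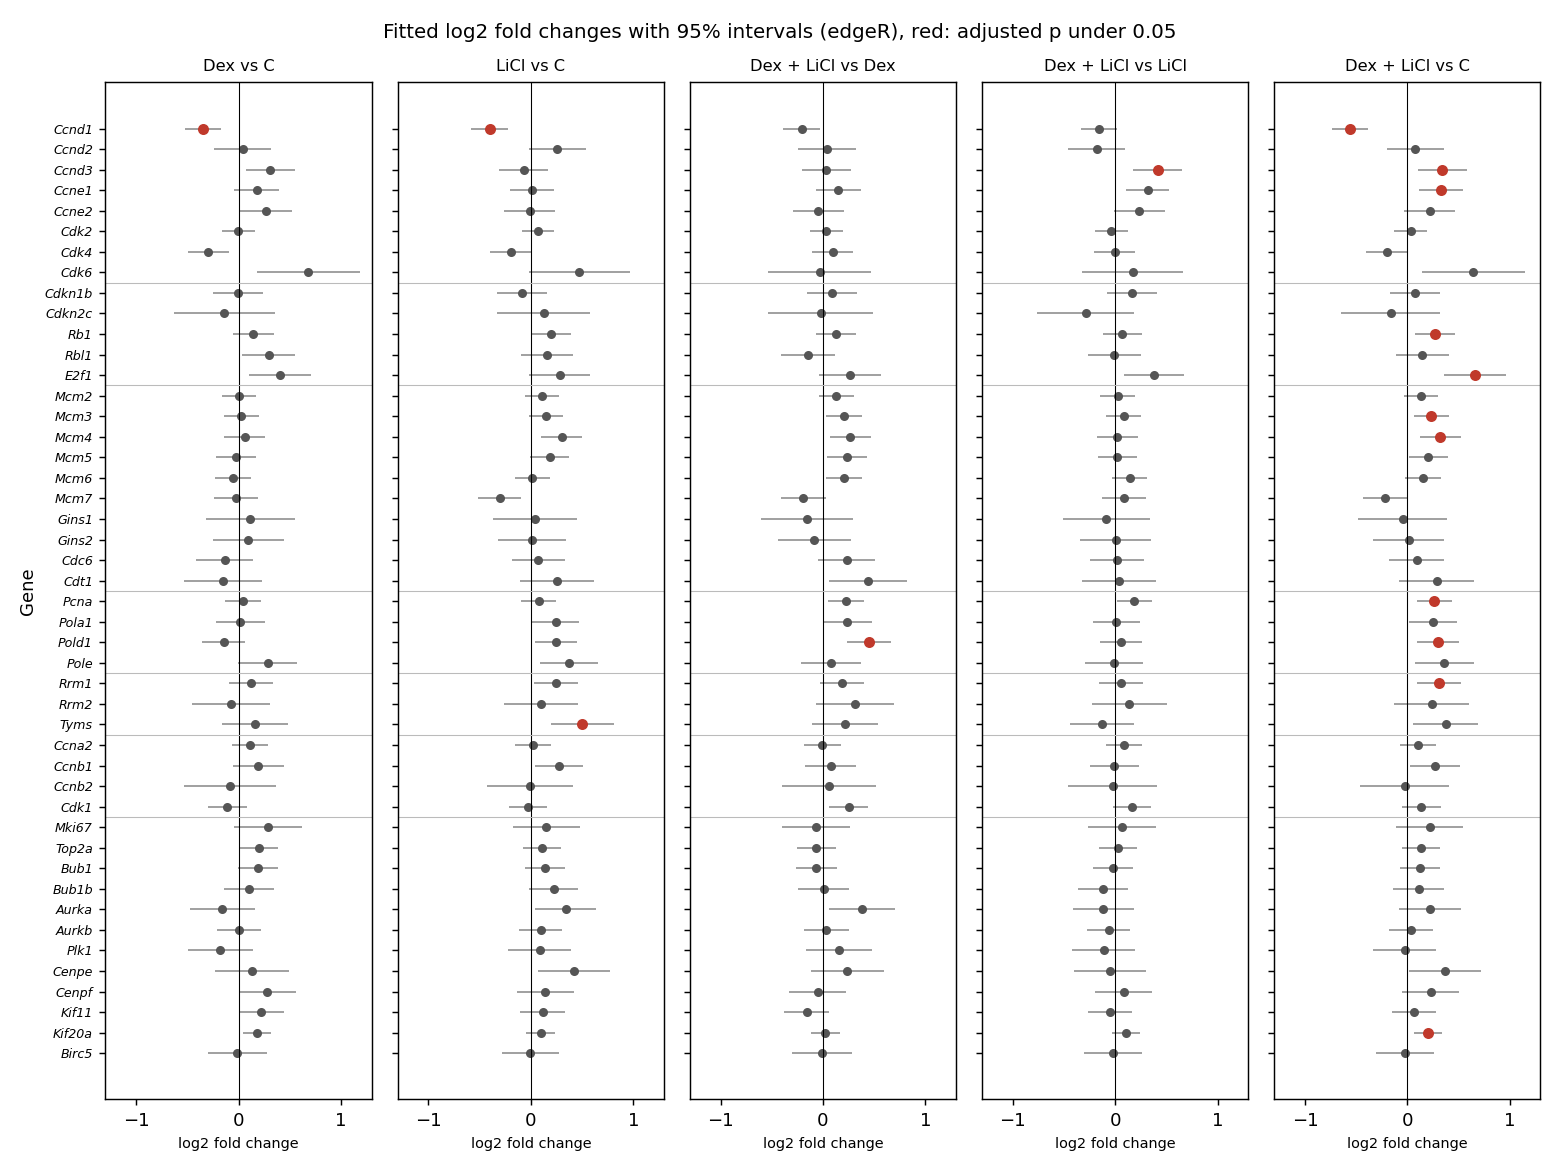
Fitted log2 differences of the 46 genes (rows, in order of role, separated by grey lines) with 95% intervals from edgeR in the 5 comparisons (columns). Red points, with an adjusted p under 0.05, are 1, 2, 1, 1 and 11 from left to right, and the red points to the left of 0 are all Ccnd1.

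Ccnd1 encodes cyclin D1, a G1 cyclin induced by growth signals and a known target of β-catenin. It was at 209.9, 233 and 225 CPM in the control, 169, 164 and 192 in the dexamethasone, 158, 172 and 176 in the LiCl and 141, 159.6 and 153 in the dexamethasone + LiCl pools. All 9 treated pools were below the lowest control pool, and the dexamethasone + LiCl pools were below all dexamethasone pools. Ccnd1 fell with dexamethasone (log2 difference ± SE from edgeR with 3 pools a condition, -0.35 ± 0.08, adjusted p = 0.0125), with LiCl (-0.40 ± 0.08, adjusted p = 0.00645) and with both drugs (-0.56 ± 0.08, adjusted p = 1.87e-04). The last 2 calls held in each of the 12 fits that left out 1 library. The call with dexamethasone was lost without dexamethasone replicate 1 or replicate 2, where the adjusted p reached 0.0581. LiCl added to dexamethasone gave a log2 difference of -0.21 ± 0.08, adjusted p = 0.15, with an interval of -0.39 to -0.03.

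Ccnd3, another D cyclin, was at 232, 299 and 226 CPM in the control, 307, 304 and 326 in the dexamethasone, 206, 259 and 254 in the LiCl and 296, 330.1 and 332 in the dexamethasone + LiCl pools. The LiCl pools lay below every dexamethasone pool, while control replicate 2 came close to the dexamethasone pools. Ccnd3 rose when dexamethasone was added to LiCl (log2 0.41 ± 0.11, adjusted p = 0.0371) and with both drugs against control (0.34 ± 0.11, adjusted p = 0.0402), and its difference with dexamethasone alone was 0.31 ± 0.11, adjusted p = 0.0988. Without control replicate 2 the difference with dexamethasone alone was 0.45, adjusted p = 0.00778. Leaving out 1 library ended the first call in 5 of 12 fits (dexamethasone replicate 1, LiCl replicates 1 and 3, dexamethasone + LiCl replicates 2 and 3). The second was lost in 6 (control replicates 1 and 3, dexamethasone replicate 1, LiCl replicate 3, dexamethasone + LiCl replicates 2 and 3).

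Cyclin E1, encoded by Ccne1, binds CDK2 at the entry to S phase. Its level was 23.7, 21.6 and 22.1 CPM in the control, 25.5, 25.4 and 25.4 in the dexamethasone, 23.6, 20.9 and 23.6 in the LiCl and 29.9, 24.3 and 30.4 in the dexamethasone + LiCl pools. Every dexamethasone + LiCl pool was above every control and LiCl pool. Ccne1 rose with both drugs against control (log2 0.33 ± 0.10, adjusted p = 0.0292), a call lost without control replicate 2 or 3 or dexamethasone + LiCl replicate 1 or 3. Its difference for dexamethasone added to LiCl was 0.32 ± 0.10, adjusted p = 0.0783. Pools of the same number in these groups varied together, and with that number in the model as a replicate block this adjusted p was 0.0389.

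The other G1 genes gave no call in edgeR with all 12 libraries. Cdk6, a partner of the D cyclins, was at 43.8, 15.2 and 42.9 CPM in the control, 56.6, 53.3 and 57.2 in the dexamethasone, 47.9, 48.8 and 48.2 in the LiCl and 52.2, 52.7 and 57.8 in the dexamethasone + LiCl pools. Control replicate 2 was far below the rest, and all treated pools were above all control pools. The log2 difference with dexamethasone was 0.68 ± 0.24, adjusted p = 0.0837, and without control replicate 2 it was 0.36, adjusted p = 0.00677. For both drugs it was 0.64 ± 0.24, adjusted p = 0.0614, and without that pool 0.33, adjusted p = 0.00669. Cdk6 also had the widest spread of the 46 within conditions, 0.44 log2 (SD), against a median of 0.15. Cdk4, the sister kinase, had log2 differences of -0.30 ± 0.09, adjusted p = 0.0567 with dexamethasone and -0.20 ± 0.09, adjusted p = 0.196 with LiCl. Ccnd2, Ccne2 and Cdk2 had log2 differences between -0.18 and 0.27 over the 5 comparisons.

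E2f1 encodes the E2F factor that activates genes of DNA synthesis. It was at 34.2, 38.2 and 32.4 CPM in the control, 45.2, 56.2 and 35.8 in the dexamethasone, 36.8, 43.95 and 46.1 in the LiCl and 47.9, 60.8 and 56.3 in the dexamethasone + LiCl pools. The dexamethasone + LiCl pools were above every control and LiCl pool but overlapped the dexamethasone pools, which were widely spread. E2f1 rose with both drugs against control (log2 0.66 ± 0.14, adjusted p = 0.0031), in all 12 fits that left out a library, and this was the largest rise among the calls made for the 46. With dexamethasone alone it was 0.40 ± 0.14, adjusted p = 0.0903 and with LiCl alone 0.28 ± 0.14, adjusted p = 0.212.

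Rb1, the retinoblastoma pocket protein that holds E2F factors in check, was at 28.6, 27.6 and 28.5 CPM in the control, 32.3, 33.99 and 27.1 in the dexamethasone, 33.2, 30.3 and 33.9 in the LiCl and 34.9, 33.9 and 33.5 in the dexamethasone + LiCl pools. It rose with both drugs against control (log2 0.27 ± 0.09, adjusted p = 0.0463), but 10 of the 12 fits without 1 library lost this call (those without any 1 of the control, LiCl or dexamethasone + LiCl pools, or without dexamethasone replicate 1). Rbl1, its relative p107, differed by 0.30 ± 0.12, adjusted p = 0.146 with dexamethasone. The inhibitors showed no call: Cdkn1b, which encodes p27, had log2 differences from -0.09 to 0.17, and Cdkn2c, which encodes p18, from -0.29 to 0.13.

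Of the 10 origin licensing and helicase genes, 2 rose with both drugs against control and none was called in the other comparisons by edgeR, while DESeq2 also called Mcm4 higher and Mcm7 lower with LiCl. Mcm4, a subunit of the MCM2 to MCM7 helicase ring, was at 120.4, 107 and 102 CPM in the control, 120.1, 124 and 98.4 in the dexamethasone, 139, 137 and 131 in the LiCl and 148, 134 and 132 in the dexamethasone + LiCl pools. The LiCl and dexamethasone + LiCl pools were all above the dexamethasone and control pools. Its log2 difference was 0.32 ± 0.09, adjusted p = 0.022 for both drugs, 0.30 ± 0.09, adjusted p = 0.0514 for LiCl and 0.27 ± 0.09, adjusted p = 0.0986 for LiCl added to dexamethasone. The call was lost without control replicate 3 or dexamethasone + LiCl replicate 1. With the replicate block the adjusted p for LiCl was 0.0116 and for LiCl added to dexamethasone 0.0277.

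Mcm3, another ring subunit, was at 59.1, 56.4 and 52.8 CPM in the control, 60.7, 55.4 and 55.4 in the dexamethasone, 66.3, 58.7 and 61.9 in the LiCl and 68.2, 62.04 and 67.5 in the dexamethasone + LiCl pools. The dexamethasone + LiCl pools were above all dexamethasone and control pools. Mcm3 rose with both drugs (log2 0.23 ± 0.08, adjusted p = 0.0473), a call that 8 of the 12 fits without 1 library did not keep (control replicates 2 and 3, dexamethasone replicates 1 and 3, LiCl replicates 2 and 3, dexamethasone + LiCl replicates 1 and 3). For LiCl added to dexamethasone Mcm2, Mcm3, Mcm5 and Mcm6 had log2 differences of 0.13, 0.21, 0.23 and 0.21, with adjusted p between 0.138 and 0.362. Mcm7 pointed the other way. It was at 85.6, 85.6 and 84.2 CPM in the control, 91.8, 72.9 and 86.5 in the dexamethasone, 77.3, 64.6 and 65.1 in the LiCl and 78.3, 64.96 and 76.4 in the dexamethasone + LiCl pools, and its log2 difference with LiCl was -0.30 ± 0.10, adjusted p = 0.064, with an adjusted p of 0.0164 in the blocked fit. The loading factors Cdc6 and Cdt1 had differences of 0.23 ± 0.13 and 0.44 ± 0.18 for LiCl added to dexamethasone, and the GINS subunits Gins1 and Gins2 had -0.16 ± 0.21 and -0.08 ± 0.17, without a call.

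Pcna encodes the sliding clamp that holds DNA polymerases on their template, and its protein was stained in the study. Its RNA was at 78.8, 86.8 and 75.2 CPM in the control, 85.7, 85.6 and 75.6 in the dexamethasone, 81.8, 84.2 and 87.3 in the LiCl and 104, 93.2 and 91.98 in the dexamethasone + LiCl pools. The dexamethasone pools lay within the control range at both ends, and the dexamethasone + LiCl pools were above all others. For dexamethasone against control the log2 difference was 0.04 ± 0.08, adjusted p = 0.809, with a 95% interval of -0.14 to 0.22. Pcna rose with both drugs against control (0.26 ± 0.08, adjusted p = 0.0302), a call lost without control replicate 1 or 3 or dexamethasone + LiCl replicate 1 or 2. LiCl added to dexamethasone gave 0.22 ± 0.08, adjusted p = 0.111, with an interval of 0.05 to 0.40.

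Pold1, the catalytic subunit of DNA polymerase δ, was the one member called for LiCl added to dexamethasone. It was at 44.2, 43.2 and 42.3 CPM in the control, 40.9, 39.4 and 36.9 in the dexamethasone, 47.9, 52.4 and 53.1 in the LiCl and 62.2, 46.4 and 51.6 in the dexamethasone + LiCl pools. The dexamethasone pools were below all control pools, and the LiCl and dexamethasone + LiCl pools were above all control pools. Pold1 rose with LiCl added to dexamethasone (log2 0.45 ± 0.10, adjusted p = 0.012) and with both drugs against control (0.30 ± 0.10, adjusted p = 0.0366), and its difference with dexamethasone alone was -0.15 ± 0.10, adjusted p = 0.399. The first call was lost without dexamethasone replicate 3 or dexamethasone + LiCl replicate 1. The second was lost without any 1 of the control pools or dexamethasone + LiCl replicate 1 or 3. Pola1, of the primase complex that starts each strand, and Pole, of polymerase ε, had log2 differences with both drugs of 0.25 ± 0.11, adjusted p = 0.112 and 0.36 ± 0.13, adjusted p = 0.0663. In the blocked fit the adjusted p of Pole was 0.0075 for both drugs and 0.00995 for LiCl, with control replicate 2 the lowest of the 12 libraries for this gene.

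The nucleotide supply genes included the other call with LiCl. Tyms encodes thymidylate synthase, which makes the thymidine nucleotide for DNA. It was at 36.7, 21.2 and 30.6 CPM in the control, 36.01, 34.1 and 29.9 in the dexamethasone, 41.7, 43.8 and 41.5 in the LiCl and 41.3, 40.97 and 34.3 in the dexamethasone + LiCl pools. Control replicate 2 was lowest, and all LiCl pools were above all control and dexamethasone pools. Tyms rose with LiCl (log2 0.50 ± 0.14, adjusted p = 0.0372), a call lost without control replicate 2 or 3 or any 1 of the LiCl pools. With both drugs it was 0.37 ± 0.15, adjusted p = 0.0829, and the blocked fit gave an adjusted p of 0.0469.

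Rrm1, the large subunit of ribonucleotide reductase, was at 112, 111 and 109 CPM in the control, 128, 129.7 and 101 in the dexamethasone, 149, 120.1 and 123 in the LiCl and 140.2, 137 and 132 in the dexamethasone + LiCl pools. It rose with both drugs against control (log2 0.31 ± 0.10, adjusted p = 0.0403), and its tight control pools were below all pools of that group. This call was lost in 7 of 12 fits (without any 1 of the control or dexamethasone + LiCl pools, or without LiCl replicate 3). Rrm2, the small subunit, had log2 differences from -0.07 to 0.31 and no call.

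**Figure D3:**
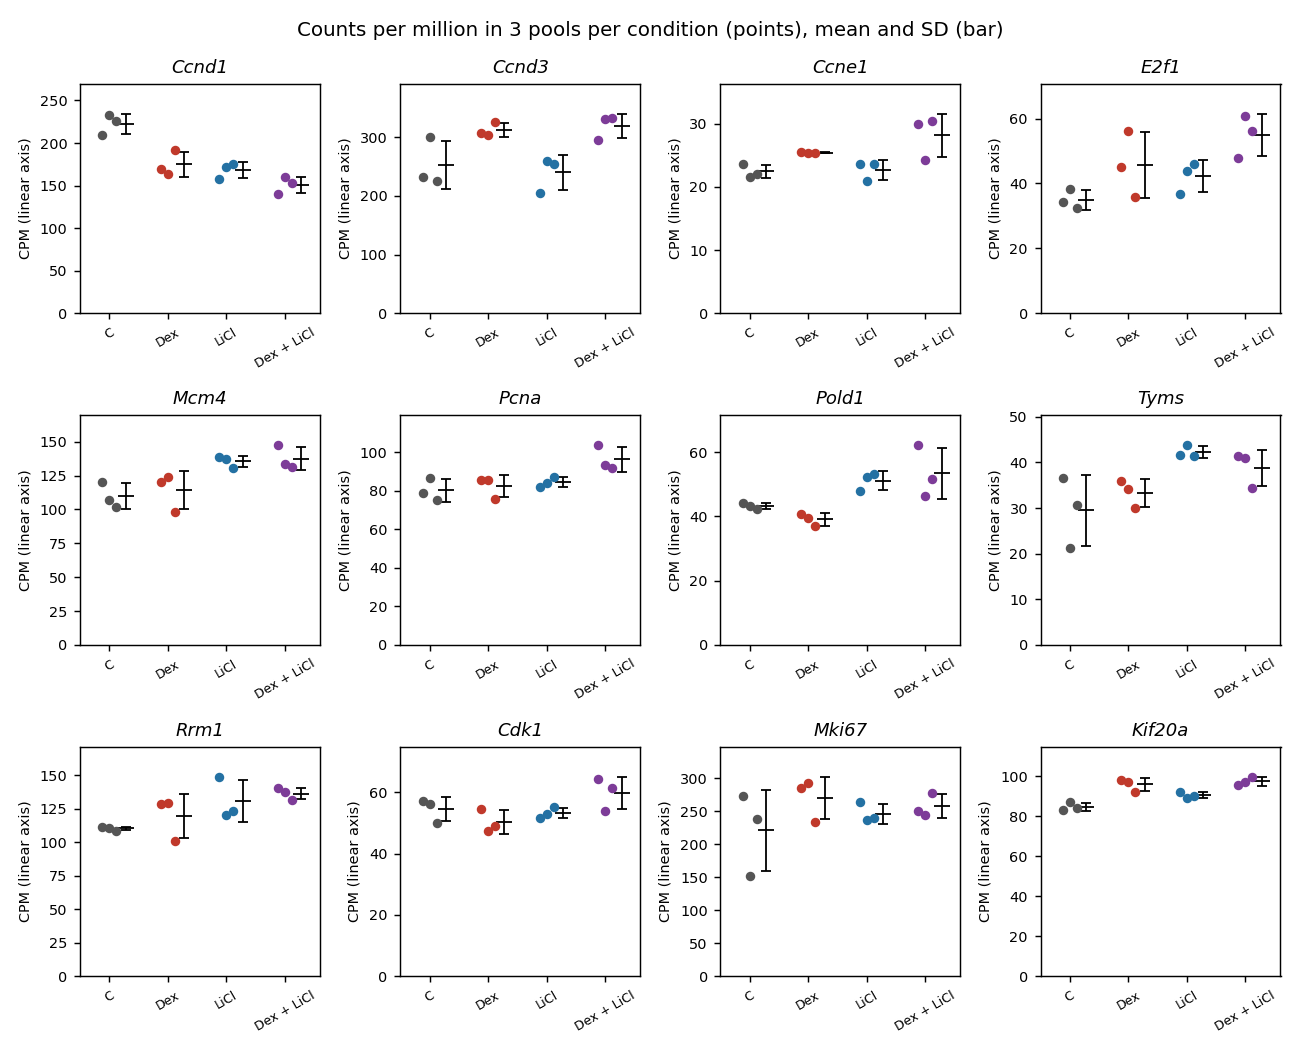
CPM of 12 of the 46 genes in the 3 pools of each condition (points, linear axes from 0), with the mean and SD (black bar). Ccnd1 is lowest in the dexamethasone + LiCl pools, Pcna, Pold1, Mcm4 and E2f1 are highest on average there, and control replicate 2 is the low point for Tyms and Mki67.

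The 4 S to M genes gave no call in any comparison, in edgeR or in DESeq2, and with an unadjusted p under 0.05 there were 0, 1, 1, 0 and 1 of them. Ccna2, cyclin A2 of S phase and G2, had the highest mean CPM among them and was at 67.6, 70.8 and 67.6 CPM in the control, 81.6, 72.4 and 68.1 in the dexamethasone, 72.96, 63.6 and 72.4 in the LiCl and 71.8, 72.6 and 76.6 in the dexamethasone + LiCl pools. Its pools overlapped between most conditions, and its log2 differences ran from -0.01 to 0.11. Cdk1, the kinase that starts mitosis, had -0.11 ± 0.09, adjusted p = 0.475 with dexamethasone and 0.25 ± 0.09, adjusted p = 0.101 with LiCl added to it. Ccnb1 and Ccnb2, the B cyclins, had 0.28 ± 0.11, adjusted p = 0.133 and -0.00 ± 0.20, adjusted p = 0.992 with LiCl.

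Of the 12 mitotic genes and proliferation markers, 1 rose, Kif20a, a kinesin of the dividing cell's midzone. It was at 82.96, 86.9 and 84.1 CPM in the control, 98.3, 97.03 and 92.2 in the dexamethasone, 92.04, 89.2 and 89.9 in the LiCl and 95.5, 96.9 and 99.7 in the dexamethasone + LiCl pools. All treated pools were above all control pools, with the smallest spread within conditions of the 46 genes, 0.036 log2 (SD). Kif20a rose with both drugs (log2 0.20 ± 0.07, adjusted p = 0.0352), a call lost in 7 of 12 fits (control replicates 1 and 3, LiCl replicates 2 and 3, and any 1 of the dexamethasone + LiCl pools). With dexamethasone it was 0.18 ± 0.07, adjusted p = 0.0972.

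Mki67, the Ki-67 antigen of cycling cells, was at 273, 153 and 239 CPM in the control, 285, 293 and 234 in the dexamethasone, 264, 236 and 239 in the LiCl and 250.3, 245 and 278 in the dexamethasone + LiCl pools. Apart from the low control replicate 2 the conditions overlapped. Its log2 difference was 0.29 ± 0.16, adjusted p = 0.275 with dexamethasone and -0.07 ± 0.16, adjusted p = 0.844 with LiCl added to dexamethasone, with a 95% interval of -0.40 to 0.26 for the latter. Without control replicate 2 the difference with dexamethasone was 0.08, adjusted p = 0.725. Top2a, topoisomerase IIα, had 0.20 ± 0.09, adjusted p = 0.175 with dexamethasone. The checkpoint kinases Bub1 and Bub1b, the motors Cenpe and Kif11, the centromere protein Cenpf, Plk1, both Aurora kinases and Birc5, which encodes survivin, gave no call. With the replicate block, Aurka, Bub1b and Cenpe had an adjusted p of 0.0488, 0.0423 and 0.0478 for LiCl, and control replicate 2 was the lowest of the control pools for all 3.

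With the block, the counts of members higher and lower became 6 and 2 for LiCl, beside 7.43% and 8.24% of all genes. They were 2 and 0 for LiCl added to dexamethasone, beside 5.55% and 7%, 2 and 0 for dexamethasone added to LiCl, beside 4.81% and 4.65%, and 13 and 1 for both drugs against control, beside 13.4% and 14.1%. Cdk6, Pole and Tyms were the additions in the last, with an adjusted p of 0.027 for Cdk6. For dexamethasone against control the block gave Ccnd3, Cdk6, E2f1 and Pole higher and Ccnd1 and Cdk4 lower, beside 7.29% and 7.1% of all genes. Whether the numbers pair those pools is not settled. No member passed the test of the interaction, which asks whether LiCl acts differently with and without dexamethasone. There 2 had an unadjusted p under 0.05, the smallest adjusted p was 0.838, 0.00794% of all genes passed in edgeR, and DESeq2 called 0 members.

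Set side by side, the role groups had unequal medians when LiCl was added to dexamethasone. Median log2 differences were 0.21 for licensing and helicase genes, 0.23 for polymerases and clamp and 0.21 for nucleotide supply, but 0.03 for G1 cyclins and kinases, 0.07 for the S to M genes and 0.00 for mitosis and proliferation markers. All 4 polymerase and clamp genes and all 3 nucleotide genes had values above 0, as had 7 of the 10 licensing genes and 6 of the 12 mitotic genes. With dexamethasone alone against control the medians were -0.01 for licensing, 0.03 for polymerases and clamp and 0.16 for mitosis and proliferation markers, and without control replicate 2 they were 0.01, 0.03 and 0.09. Both comparisons use the dexamethasone pools. Against control, LiCl gave medians of 0.09 for licensing, 0.24 for polymerases and clamp, 0.25 for nucleotide supply and 0.13 for mitotic genes. With both drugs against control they were 0.14, 0.28, 0.31 and 0.13. Licensing and mitotic medians were thus close with both drugs, and licensing was the lower with LiCl alone, but both statements depended on control replicate 2. Without that pool the licensing and mitotic medians were 0.18 and 0.04 with both drugs. With LiCl alone they were then 0.13 and 0.08, so licensing was the higher. The difference between role groups was not tested. With LiCl added to dexamethasone, 1 of these members passed the test by itself.

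Averaged over the 4 polymerase and clamp genes, log2 of CPM over the control mean was 0.07, -0.11 and 0.01 in the control pools and 0.11, 0.10 and -0.07 in the dexamethasone pools. It was 0.24, 0.20 and 0.26 in the LiCl pools and 0.45, 0.16 and 0.28 in the dexamethasone + LiCl pools. Every pool with LiCl was thus above every pool without it. Over the 10 licensing and helicase genes the pools overlapped. There the average was 0.03, 0.05 and -0.09 in the control pools and 0.11, -0.13 and -0.04 in the dexamethasone pools. It was 0.13, 0.003 and 0.09 with LiCl and 0.17, 0.03 and 0.14 with dexamethasone + LiCl. Over the 12 mitotic genes the average in control replicate 2 was -0.19, against 0.11 and 0.04 in the other control pools.

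The role groups also differed in their promoter letters. RefSeq promoters on build GRCr8 (250 bases before and 50 after each gene's start) matched 36 of the 46 genes, all but Ccnd1, Ccnd2, Ccne2, Cdk6, E2f1, Mcm4, Cdc6, Rrm2, Ccna2 and Aurkb. They were searched on both strands, counting overlapping matches, for E2F sites (TTTCCCGC, TTTGGCGC, TTTCGCGC or TTTGCCGC), for the cell cycle homology region of late cell cycle genes (TTTGAA) and for the CCAAT box (CCAAT). An E2F match was found in 13 of the 36 (36.1%), beside 2.14% of all 33469 promoters. It was in 7 of 8 licensing and helicase promoters (Cdt1, Gins1, Mcm2, Mcm3, Mcm5, Mcm6 and Mcm7) and in 0 of 11 promoters of mitosis and proliferation markers. The homology region was in 6 of those 11 and in 9 of the 36 (25%), beside 18.3% of all, and CCAAT in 25 of 36 (69.4%), beside 37.5%.

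The 250 bases before the start are shown for 3 genes that were called, Pcna (chr3:139955821-139956070, minus strand), Pold1 (chr1:104172983-104173232, minus strand) and Tyms (chr9:120776084-120776333, minus strand), and for 2 later-acting genes without a call, Cdk1 (chr20:19265043-19265292, plus strand) and Mki67 (chr1:199952594-199952843, minus strand). Each runs 5′ to 3′ along the gene's strand, and capitals mark a match on either strand.
Pcna: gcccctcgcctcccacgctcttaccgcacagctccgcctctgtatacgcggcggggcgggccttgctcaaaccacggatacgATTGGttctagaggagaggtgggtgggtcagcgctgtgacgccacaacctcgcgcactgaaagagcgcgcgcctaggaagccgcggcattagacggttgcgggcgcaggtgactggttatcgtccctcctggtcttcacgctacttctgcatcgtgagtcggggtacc
Pold1: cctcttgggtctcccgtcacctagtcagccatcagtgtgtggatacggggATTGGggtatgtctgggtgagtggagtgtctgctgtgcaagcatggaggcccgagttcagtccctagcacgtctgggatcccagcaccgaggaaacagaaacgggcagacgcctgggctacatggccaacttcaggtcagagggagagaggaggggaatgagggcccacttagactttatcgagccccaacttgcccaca
Tyms: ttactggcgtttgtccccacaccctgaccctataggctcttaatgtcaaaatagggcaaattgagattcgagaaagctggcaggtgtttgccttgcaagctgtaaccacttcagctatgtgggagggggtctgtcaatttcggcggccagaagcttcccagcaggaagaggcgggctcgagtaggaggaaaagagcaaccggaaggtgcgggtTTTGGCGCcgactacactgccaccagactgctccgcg
Cdk1: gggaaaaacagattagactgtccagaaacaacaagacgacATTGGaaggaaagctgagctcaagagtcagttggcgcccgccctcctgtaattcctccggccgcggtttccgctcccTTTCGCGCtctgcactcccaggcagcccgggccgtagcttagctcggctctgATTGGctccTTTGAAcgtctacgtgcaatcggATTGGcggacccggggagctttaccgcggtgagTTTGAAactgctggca
Mki67: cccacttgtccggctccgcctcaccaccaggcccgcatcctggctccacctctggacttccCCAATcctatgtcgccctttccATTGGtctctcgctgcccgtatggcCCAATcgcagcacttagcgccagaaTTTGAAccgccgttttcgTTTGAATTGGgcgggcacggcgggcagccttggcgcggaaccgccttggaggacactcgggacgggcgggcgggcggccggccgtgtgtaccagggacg

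Tyms holds 1 E2F match, TTTGGCGC, starting 37 bases before the gene's start. Cdk1 holds 1 E2F match 133 bases before the start, 2 homology regions and CCAAT boxes in reverse, read as ATTGG. Pcna and Pold1, both called with both drugs, hold 1 reversed CCAAT box each and none of the E2F letters in this window. The 13 members with an E2F match had a median log2 difference of 0.21 for LiCl added to dexamethasone and the 23 without had 0.03, and with both drugs against control the medians were 0.20 and 0.14. With dexamethasone against control, which shares the dexamethasone pools with the first, they were 0.02 and 0.10. For LiCl against control they were 0.16 and 0.11, and for dexamethasone added to LiCl 0.02 and -0.004. Of the 13 with a match, 7 were licensing and helicase genes, and the 23 without included all 11 mitotic genes searched. This split therefore overlaps that of the role groups. A match is a description of letters and was not tested as a site.

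Of 28 other G1 and E2F regulators listed, 22 passed the count filter, and those called higher and lower were 3 and 0 with dexamethasone, 2 and 1 with LiCl, 3 and 2 with LiCl added to dexamethasone, 2 and 1 with dexamethasone added to LiCl, and 5 and 0 with both drugs against control, beside the shares of all genes given for the 46. Cdkn1a encodes p21, an inhibitor of cyclin and CDK complexes. It was at 77.96, 77.9 and 74.3 CPM in the control, 115, 74.5 and 105 in the dexamethasone, 147, 129.7 and 136 in the LiCl and 189, 182 and 173 in the dexamethasone + LiCl pools. All pools with LiCl were above all pools without it. Cdkn1a rose with LiCl (log2 0.84 ± 0.12, adjusted p = 3.56e-04), with LiCl added to dexamethasone (0.89 ± 0.12, adjusted p = 2.69e-04) and with both drugs (1.24 ± 0.12, adjusted p = 2.24e-06), and each call held in all 12 fits that left out a library. Cdkn1c, which encodes p57, had no call, with log2 differences from -0.07 to 0.20.

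Ccng1, cyclin G1, a p53 target, was at 102, 95.3 and 92.2 CPM in the control, 130.3, 114 and 139.8 in the dexamethasone, 194, 182 and 142 in the LiCl and 224, 201 and 158 in the dexamethasone + LiCl pools. It rose with LiCl (log2 0.84 ± 0.13, adjusted p = 7.78e-04) and with LiCl added to dexamethasone (0.60 ± 0.13, adjusted p = 0.01), the latter lost without dexamethasone + LiCl replicate 1. Tfdp2, a binding partner of E2F factors, was at 35.96, 25.5 and 33.4 CPM in the control, 73.9, 71.9 and 79.8 in the dexamethasone, 33.5, 31.2 and 25.04 in the LiCl and 43.6, 45.2 and 44.4 in the dexamethasone + LiCl pools. The dexamethasone pools were above all others, and the dexamethasone + LiCl pools lay between them and the rest. Tfdp2 rose with dexamethasone (1.24 ± 0.12, adjusted p = 4.48e-06) and fell when LiCl was added to dexamethasone (-0.76 ± 0.12, adjusted p = 0.00109). Rbl2, the pocket protein p130 of resting cells, was at 46.9, 41.04 and 45.996 CPM in the control, 54.5, 58.4 and 59.3 in the dexamethasone, 41.5, 39.1 and 42.6 in the LiCl and 40.8, 46.4 and 45.1 in the dexamethasone + LiCl pools. It too was above all other pools with dexamethasone alone, rose with dexamethasone (0.36 ± 0.08, adjusted p = 0.00943) and fell when LiCl was added to it (-0.38 ± 0.08, adjusted p = 0.0114), the latter call lost without dexamethasone + LiCl replicate 1.

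Among 49 tested of 50 other replication genes, 0 were called with dexamethasone or LiCl alone or with dexamethasone added to LiCl, 2 rose with LiCl added to dexamethasone, and 5 rose with both drugs against control. Beside 3.82% and 10.8% of all genes, the last 2 counts are at about the background share. For the 3 comparisons with 0, an unadjusted p under 0.05 was found for 7, 8 and 2, and DESeq2 called 1, 0 and 0. The median log2 difference with LiCl added to dexamethasone was 0.15. Cdc45, which joins the MCM ring to form the active helicase, was at 17.01, 17.5 and 18.5 CPM in the control, 21.2, 17.5 and 18.3 in the dexamethasone, 20.1, 20.6 and 22.8 in the LiCl and 25.9, 21.9 and 25.7 in the dexamethasone + LiCl pools. It rose with LiCl added to dexamethasone (log2 0.37 ± 0.11, adjusted p = 0.0467) and with both drugs (0.47 ± 0.11, adjusted p = 0.00455), and 9 of the 12 fits without 1 library lost the first call and none the second. With both drugs Wdhd1 and Pole3, of the replisome and polymerase ε, rose by 0.38 ± 0.08 and 0.36 ± 0.09. Orc5, of the origin recognition complex, rose by 0.29 ± 0.09, and by 0.32 ± 0.09 with LiCl added to dexamethasone, calls lost in 4 and 10 of the 12 fits without 1 library.

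Among 57 tested of 59 other mitosis genes, those called higher were 3 with dexamethasone, 5 with LiCl, 3 with LiCl added to dexamethasone, 1 with dexamethasone added to LiCl and 8 with both drugs against control, and 0 were lower. Those higher were 5.26%, 8.77%, 5.26%, 1.75% and 14% of the 57, beside 5.45%, 4.71%, 3.82%, 3.79% and 10.8% of all genes. With dexamethasone this is at the background share, and with dexamethasone added to LiCl it is below. In the other comparisons it is above, by margins that were not tested. Dlgap5, a spindle protein, was at 32.99, 25.2 and 31.03 CPM in the control, 46.1, 52.5 and 40.9 in the dexamethasone, 35.9, 33.9 and 37.1 in the LiCl and 49.3, 54.7 and 44.4 in the dexamethasone + LiCl pools. The dexamethasone and dexamethasone + LiCl pools were above all others. Dlgap5 rose with dexamethasone (log2 0.64 ± 0.12, adjusted p = 0.00169) and with both drugs (0.72 ± 0.12, adjusted p = 3.22e-04). With both drugs against control, Hmmr rose by 0.38 ± 0.09, the phosphatase Cdc25c, which activates CDK1, by 0.44 ± 0.11, and the kinesin Kif2c by 0.37 ± 0.10. This Cdc25c call was lost without dexamethasone + LiCl replicate 1, and this Kif2c call without control replicate 3 or dexamethasone + LiCl replicate 1 or 3. These genes also had other calls in edgeR. Hmmr rose with dexamethasone (0.31, adjusted p = 0.0337) and with LiCl (0.28, adjusted p = 0.048), lost in 4 and 9 of 12 fits without 1 library. Cdc25c rose with LiCl (0.43, adjusted p = 0.0175), lost in 2. Kif2c rose with LiCl added to dexamethasone (0.36, adjusted p = 0.0396), lost in 8.

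Of 23 quiescence and antiproliferative genes, 22 were tested. Those higher and lower were 5 and 1 with dexamethasone, 2 and 1 with LiCl, and 2 and 1 with LiCl added to dexamethasone. Dexamethasone added to LiCl gave 5 and 0, and both drugs against control 7 and 2. In this order those higher were 22.7%, 9.09%, 9.09%, 22.7% and 31.8% of the 22, beside 5.45%, 4.71%, 3.82%, 3.79% and 10.8% of all genes. Those lower stood beside 5.49%, 5.9%, 4.78%, 3.09% and 11.8% of all genes. This list, like the others, was chosen with earlier results of these data known. A share above that of all genes therefore cannot be read as a result about such genes. Gas2, a cytoskeletal protein named for growth arrest, was at 78.5, 90.9 and 71.2 CPM in the control, 63.4, 73.2 and 72.1 in the dexamethasone, 28.4, 35.5 and 32.9 in the LiCl and 26.99, 35.3 and 28.6 in the dexamethasone + LiCl pools. It fell by about the same amount with LiCl (log2 -1.31 ± 0.12, adjusted p = 6.42e-06) and with LiCl added to dexamethasone (-1.20 ± 0.12, adjusted p = 2.29e-05). Klf9, a glucocorticoid-induced transcription factor, was at 16.7, 11.9 and 18.8 CPM in the control, 52.4, 46.8 and 54.8 in the dexamethasone, 18.1, 16.7 and 13.996 in the LiCl and 35.3, 41.7 and 45.1 in the dexamethasone + LiCl pools. It rose with dexamethasone (1.68 ± 0.15, adjusted p = 1.20e-06) and with dexamethasone added to LiCl (1.33 ± 0.15, adjusted p = 1.91e-05).

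Gadd45g, a stress gene that restrains the cell cycle, was at 11.8, 15.3 and 15.8 CPM in the control, 21.9, 21.4 and 22.8 in the dexamethasone, 21.9, 19.4 and 19.9 in the LiCl and 30.2, 34.6 and 30.4 in the dexamethasone + LiCl pools. It rose in each of the 5 comparisons, from 0.52 ± 0.12, adjusted p = 0.00963 with LiCl to 1.16 ± 0.12, adjusted p = 3.29e-06 with both drugs, and the call for LiCl added to dexamethasone was lost without dexamethasone + LiCl replicate 2. Gas6, a ligand of the TAM receptors, was at 144, 161 and 129 CPM in the control, 269.6, 273 and 269 in the dexamethasone, 133, 174 and 163 in the LiCl and 262, 311 and 253 in the dexamethasone + LiCl pools, and rose with dexamethasone (0.91 ± 0.11, adjusted p = 4.23e-05) and with dexamethasone added to LiCl (0.81 ± 0.11, adjusted p = 1.65e-04).

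**Figure D4:**
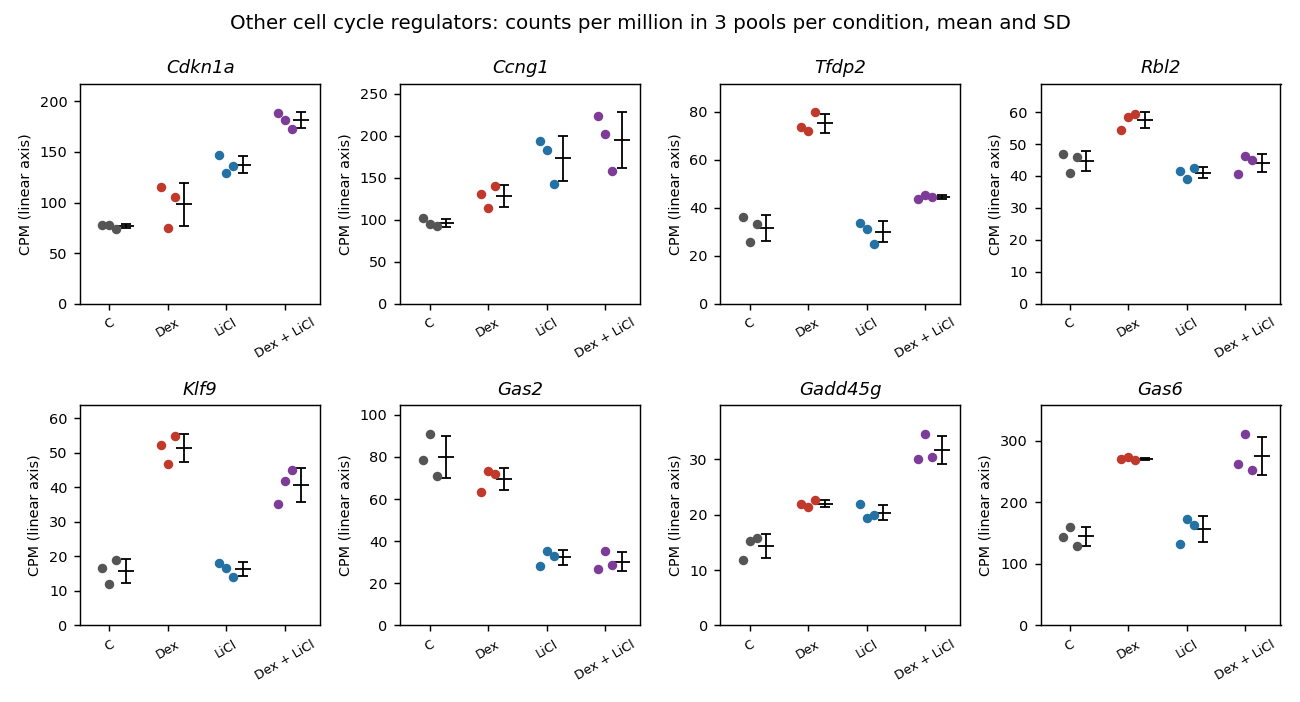
CPM of 8 other regulators in the 3 pools of each condition (points, linear axes from 0), with the mean and SD (black bar). Cdkn1a is higher and Gas2 lower in every pool with LiCl than in every pool without it, while Klf9 and Gas6 are higher in every pool with dexamethasone, and Tfdp2 is highest with dexamethasone alone.

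Marker RNAs of other cell types differed between the conditions. All 10 chondrocyte markers were present, and their summed level spanned 73438 to 107544 CPM, with overlapping ranges in the 4 conditions. Single chondrocyte markers did change: Matn1 and Matn3, of the cartilage matrix, fell with LiCl (log2 -0.76 ± 0.16, adjusted p = 0.00587, and -0.46 ± 0.08, adjusted p = 0.00185), 2 were lower with LiCl added to dexamethasone, 1 was higher with dexamethasone, and 1 was higher and 3 lower with both drugs against control. Of 10 endothelial markers, 8 fell with dexamethasone and 8 with both drugs, with a summed level of 236 to 274 CPM in control, 103 to 108 in dexamethasone, 211 to 233 in LiCl and 111 to 120.1 in dexamethasone + LiCl pools. The 5 skeletal muscle markers tested of 7 all rose with LiCl, and the sum over the 7 went from 24.1 to 25.4 CPM in control and 30.9 to 43.8 in dexamethasone to 52.9 to 64.2 in LiCl and 97.5 to 129 in dexamethasone + LiCl pools. Macrophage markers (6 tested of 8) summed to 75.9 to 114 CPM in control, 156 to 179 in dexamethasone, 67.7 to 70.6 in LiCl and 121 to 147 in dexamethasone + LiCl pools. With dexamethasone 3 of the 6 rose (Mrc1, C1qa and C1qb) and Cd68 fell, and with both drugs 2 rose (Mrc1 and C1qb) and 2 fell (Cd68 and Csf1r). Osteoclast markers (3 tested of 7, Dcstamp at 0 in all 12 libraries) summed to 161 to 179.8 CPM in control, 85.6 to 101 in dexamethasone, 94.4 to 128 in LiCl and 75.1 to 89.2 in dexamethasone + LiCl pools. The 6 hypertrophic chondrocyte markers summed to 3897 to 4203 CPM in control and 2157 to 2448 in LiCl pools, with 2845 to 5158 in dexamethasone and 3069 to 3916 in dexamethasone + LiCl pools. Between control and dexamethasone + LiCl pools the sums also did not overlap for osteoblast markers (14024 to 18003 and 8718 to 11234 CPM, 5 tested of 6, 3 lower), erythroid markers (145 to 160 and 198 to 239, 2 tested of 5, 1 higher), epidermal markers (18.9 to 24.4 and 34.9 to 36, 3 tested of 5, 2 higher, Krt5 at 0 in both groups) and Schwann cell markers (18 to 22 and 13.1 to 13.7, 1 tested of 4, 1 lower). Muscle progenitor markers (0 tested of 4, Pax7 at 0 in all 12 libraries) summed to at most 5.57 CPM in any pool. The 6 fibroblast and perichondrium markers had overlapping sums in control and dexamethasone + LiCl pools, with 2 higher and 1 lower. Their part in the differences of the 46 genes was not tested.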

How the data were processed

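The values are raw counts per gene symbol, as the authors deposited them. Per the paper's methods and the submitters' processing notes, reads of stranded poly-A libraries were aligned with Subread, duplicates were removed with Picard, HTSeq counted reads per gene, and technical repeats were merged. Removing duplicates without molecular identifiers can lower counts of abundant genes. The notes list a human build for these rat samples, so the build used is not settled. Versions of the aligner and counter were not given in the sources used here.

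Symbols that reached 60 counts in 2 or more of the 12 libraries (12602 of 30045) were fitted with edgeR 4.0.16 (R 4.3.3; glmQLFit and glmQLFTest, TMM scaling, 4 conditions in 1 model), with Benjamini-Hochberg adjustment over all genes and a threshold of 0.05. Errors of log2 differences are SE, with n = 3 pools a condition. DESeq2 1.42.0 was an alternative, as were RLE scaling, 2 other count filters, thinning to the smallest library, a 2-fold minimum, only the groups compared, a replicate block and leaving out each library. The procedure was also run on simulated counts, drawn independently for each library with no pairing of pools and no outlying pool. That run cannot tell how pairing or an outlying pool affects the calls here. The paper gives 3 consecutive experiments and, in a figure legend, 3 rats with each pool from a single rat. The labels do not tie numbers to either, so p-values measure the spread between pools. The main fit has no term for the rat and takes the pools as independent. After condition means were removed, pools of the same number correlated at 0.21 to 0.30 (LiCl and control), 0.19 to 0.50 (dexamethasone + LiCl and dexamethasone), 0.28 to 0.41 (dexamethasone + LiCl and LiCl) and 0.13 to 0.29 (dexamethasone + LiCl and control). All exceed 0.1, so the numbers were taken to pair those groups.

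The members and lists were chosen with earlier results of these data known. Values per pool were given for Pcna, Mki67, Ccnd1 and, in each role group, up to 4 members of smallest adjusted p under 0.05 (otherwise the one of highest mean CPM). Cdk6, Mcm7 and the other members named were added after their values were seen. From each other list the 4 genes of smallest adjusted p were named, besides Cdkn1a and Cdkn1c.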

Additional observations from a re-analysis of the deposited data

How the results depend on the processing

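Numbers of members higher and lower are given in the order dexamethasone against control, LiCl against control, LiCl added to dexamethasone, dexamethasone added to LiCl, and both drugs against control. The edgeR test gave 0 and 1, 1 and 1, 1 and 0, 1 and 0, and 10 and 1. RLE scaling gave the same counts. DESeq2 gave 0 and 2, 2 and 2, 1 and 0, 1 and 0, and 10 and 1. Without a count filter they were 2 and 2, 5 and 2, 1 and 0, 2 and 0, and 9 and 1. With only the groups compared they were 0 and 0, 0 and 1, 1 and 0, 2 and 0, and 3 and 1. Thinned to the smallest library they were 0 and 1, 1 and 1, 1 and 0, 0 and 0, and 8 and 1. With the 2-fold minimum all were 0. With the replicate block they were 4 and 2, 6 and 2, 2 and 0, 2 and 0, and 13 and 1. Dexamethasone and control pools of the same number correlated at 0.07, 0.03 and 0.17, so by the rule used here the numbers were not taken to pair them. That rule cannot settle the design. Both groups were taken as paired with dexamethasone + LiCl, and a low correlation does not show separate origins. Of all genes, 7.19% were higher with both drugs without a count filter, 8.46% with only the groups compared, 10.4% thinned and 13.4% with the block. Members lay below that share with only the groups compared (3 of 46) and above it in the rest of these settings. With dexamethasone, 2 higher without a count filter stood beside 4.29%, and 4 with the block beside 7.29%. Leaving out 1 library gave 0 to 3 and 0 to 2, 0 to 3 and 1 to 2, 0 to 2 and 0, 0 to 1 and 0, and 2 to 10 and 1. Without control replicate 2 they were 2 and 1, 0 and 1, 1 and 0, 1 and 0, and 6 and 1. The lowest value for both drugs, 2, came without control replicate 3 or without dexamethasone + LiCl replicate 1. The causes of these shifts were not tested. Over the calls of the genes named, 943 refits kept the call, 159 lost it and none changed direction. With 3 pools a condition, the median half-width of the 95% intervals of members was 0.24 log2.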

Other observations

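The extremes of the 46 genes were spread unevenly over the libraries. Control replicate 2 held the lowest value of the 12 for 13 genes, dexamethasone replicate 3 for 9 and dexamethasone replicate 2 for 8. The highest value was in LiCl replicate 1 for 10 genes, in dexamethasone + LiCl replicate 1 for 10, and in dexamethasone replicate 1 and dexamethasone + LiCl replicate 3 for 7 each. No control pool other than replicate 2 held a highest value.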
